A study of Mus musculus with 6 samples.

Results

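Osteopontin, encoded by Spp1, and 9 genes of the osteoclast lineage, Acp5, Ctsk, Nfatc1, Oscar, Tnfrsf11a, Dcstamp, Atp6v0d2, Cd44 and Gpnmb, were followed by RNA-seq in RAW264.7 cells. The genes were chosen by symbol for their place in osteoclast biology, with earlier results of these data known. Of their symbols, 10 of 10 were found among the 24062 genes of the count tables. RAW264.7 is a mouse macrophage cell line. The sample labels name RAW264.7 as the cell line but also bone marrow as tissue and source, and these entries were not reconciled. M0 macrophages were left unpolarized. LPS at 100 ng/mL with IFN-γ at 20 ng/mL gave M1 macrophages and IL-4 at 20 ng/mL gave M2 macrophages, each over 24 h. RM0, RM1 and RM2 macrophages were cells of the same states that were exposed to 10 Gy of gamma rays from a 137Cs source and kept for a further 24 h. Each of the 6 conditions was 1 library made from RNA pooled from several wells, so the spread between cultures was not measured. Neither the labels nor the methods say whether non-irradiated cells were also kept for the further 24 h, so irradiation and the added time cannot be told apart.

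Osteoclasts are the bone-resorbing cells of the monocyte and macrophage lineage, and RAW264.7 cells are widely used as their precursors because they form multinucleated osteoclasts when given RANKL. RANKL binds its receptor RANK on the precursor, and together with co-stimulatory receptors that signal through ITAM adaptors it induces NFATc1, the master transcription factor of the lineage. NFATc1 works with AP-1, PU.1 and MITF family factors to turn on genes of cell fusion and of matrix digestion. No RANKL was named among the treatments, so the genes were measured here in macrophages under LPS with IFN-γ, under IL-4 and after irradiation, and not in osteoclasts.

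The cells matched their label as macrophages. Of 7 macrophage markers, 6 had at least 10 counts in 1 or more libraries, and their summed level lay between 17200 and 32900 CPM, the usual unit of counts relative to library size, here after TMM scaling, which also corrects for composition. Of 7 markers of mature osteoclasts, 6 reached 10 counts, with a summed level between 259 and 522 CPM, while Calcr, the calcitonin receptor that marks mature osteoclasts, had 0 counts in every library. Of the markers of osteoblasts and stromal cells, 2 of 9 reached 10 counts, with a summed level between 14.0 and 24.7 CPM. Most of that sum was Runx2, with 201 counts in M1 to 471 in RM2, and the rest had 11 counts or fewer. Markers of dendritic cells reached 10 counts for 3 of 6 genes and summed to between 1.26 and 3.75 CPM. Library totals ranged from 17894937 to 18870516 counts, and a count of 0 allows up to 3 counts in a library of this size. Intervals in brackets below are 95% intervals for counting error alone.

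On a scale that divides CPM by transcript length, the genes spanned a wide range, in the order Spp1, Gpnmb, Cd44, Ctsk, Acp5, Nfatc1, Dcstamp, Tnfrsf11a, Atp6v0d2 and Oscar by the median of the 6 libraries. The median length-scaled level of Spp1 was 21000 CPM per kilobase, far above Gpnmb at 140 and Cd44 at 86.4. Ctsk had a median length-scaled level of 76.8 CPM per kilobase, and its range from 36.6 to 81.1 overlapped that of Cd44, from 77.7 to 91.4. Acp5 followed with a median of 22.0 CPM per kilobase and a range from 19.4 to 56.6, which overlapped that of Ctsk and lay above that of Nfatc1, from 8.67 to 18.1. Nfatc1 and Dcstamp had medians of 14.1 and 13.3 CPM per kilobase, and their ranges overlapped. Tnfrsf11a and Atp6v0d2 had median length-scaled levels of 6.38 and 5.35 CPM per kilobase and overlapped too. Oscar was last at 0.181 CPM per kilobase, and its range did not reach that of any other gene.

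**Figure D1:**
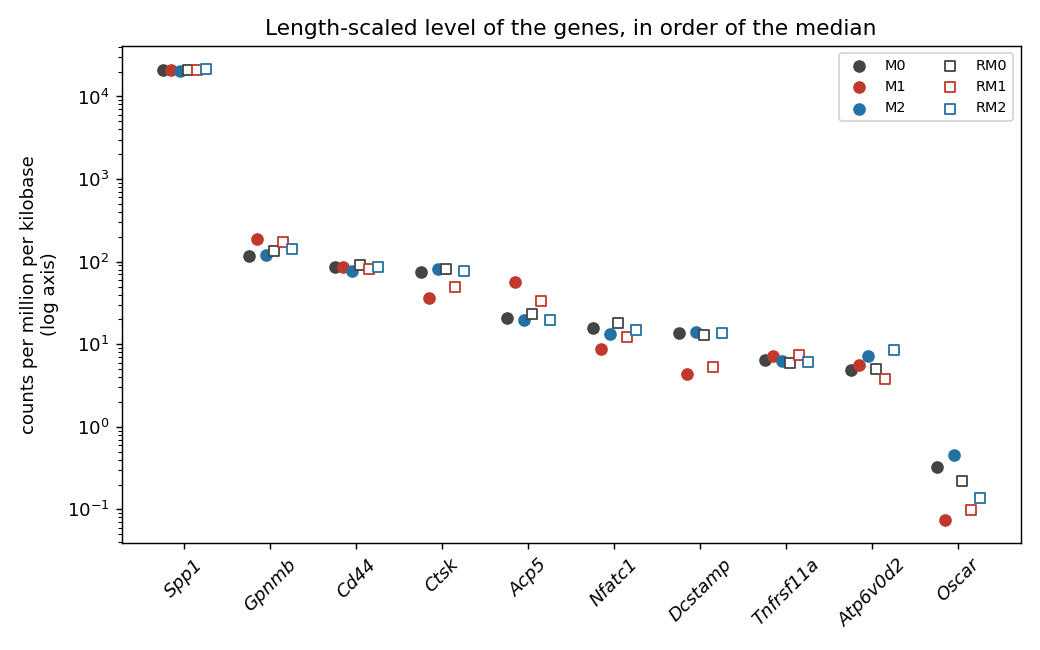
Length-scaled level of the 10 genes on a log axis, in CPM per kilobase of transcript, in the order of their medians. Each symbol is 1 library, filled circles are non-irradiated and open squares irradiated. Spp1 stands apart at the top with a median of 21000 and Oscar at the bottom with 0.181.

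RefSeq promoter windows were used for 7 of the 10 genes, in 10 windows of 250 bases before an annotated start. The 4 windows below belong to the gene with the highest level, to the enzymes Acp5 and Ctsk, which moved in opposite directions in M1 macrophages, and to Gpnmb, which moved with Acp5. All are from GRCm38.p6 and are written 5′ to 3′ on the strand of the gene, and each ends at the base before the start. The Acp5 window belongs to the third of its 3 annotated starts, inside the listed gene span. Capitals mark matches on either strand to the NFAT core GGAAA, the PU.1 core GAGGAA, the RUNX motif AACCACA or the M-box core CATGTG, which MITF family factors bind.
Spp1 promoter, chr5:104434861-104435110, plus strand: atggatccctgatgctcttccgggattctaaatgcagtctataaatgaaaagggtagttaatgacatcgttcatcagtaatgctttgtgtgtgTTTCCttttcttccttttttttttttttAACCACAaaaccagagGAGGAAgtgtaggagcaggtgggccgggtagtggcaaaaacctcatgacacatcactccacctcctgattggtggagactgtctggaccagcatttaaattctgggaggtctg
Acp5 promoter, chr9:22130599-22130848, minus strand: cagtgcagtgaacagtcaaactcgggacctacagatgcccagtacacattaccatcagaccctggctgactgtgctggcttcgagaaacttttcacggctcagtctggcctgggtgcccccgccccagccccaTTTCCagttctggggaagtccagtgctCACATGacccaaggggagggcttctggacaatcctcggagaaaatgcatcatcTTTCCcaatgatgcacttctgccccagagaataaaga
Ctsk promoter, chr3:95498960-95499209, plus strand: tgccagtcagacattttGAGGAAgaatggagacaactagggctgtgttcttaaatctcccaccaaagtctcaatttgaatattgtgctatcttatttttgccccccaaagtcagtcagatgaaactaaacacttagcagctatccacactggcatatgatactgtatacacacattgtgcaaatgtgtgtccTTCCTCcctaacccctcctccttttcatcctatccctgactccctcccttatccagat
Gpnmb promoter, chr6:49036268-49036517, plus strand: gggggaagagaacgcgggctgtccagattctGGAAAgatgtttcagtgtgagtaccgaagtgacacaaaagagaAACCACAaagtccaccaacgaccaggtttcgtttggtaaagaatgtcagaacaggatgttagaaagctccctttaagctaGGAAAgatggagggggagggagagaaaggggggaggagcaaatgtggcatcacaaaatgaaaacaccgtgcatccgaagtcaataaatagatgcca

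The Spp1 window held 1 match each to the NFAT core, the RUNX motif and the PU.1 core. The Acp5 window held the M-box core 90 to 85 bases before the start, with NFAT cores 117 to 113 and 37 to 33 bases before it, and the Ctsk window held 2 PU.1 cores and no NFAT core. In the Gpnmb window the RUNX motif lay 176 to 170 bases before the start, with NFAT cores 219 to 215 and 96 to 92 bases before it. Over all 10 windows the NFAT core was found for 5 of 7 genes and the PU.1 core for 4 (Spp1, Ctsk, Oscar and Cd44). The RUNX motif was found for 2 and the M-box core for 2 (Acp5 and Oscar), while the E-box CACGTG and the AP-1 motif TGANTCA were found for 0. Spp1 had 2 windows and Acp5 had 3, of which only the third held the M-box core. Counted by window, the NFAT core stood in 8 of 10, the PU.1 core in 4, the RUNX motif in 2 and the M-box core in 2. The NFAT core is short and stood in 55.6% of the 32851 RefSeq windows of the same length, the PU.1 core in 23.3%, the M-box core in 12.3%, the AP-1 motif in 6.75%, the E-box in 6.02% and the RUNX motif in 4.40%. The NFAT and PU.1 cores can share bases where GGAAA follows GA. These matches describe letters and no binding was measured.

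Spp1 (NM_001204233, chr5:104435111-104441053, plus strand) encodes osteopontin, a secreted phosphoprotein of bone matrix and of activated macrophages that anchors osteoclasts to bone. Its share of all counted reads was 3.40%, 2.54% and 3.47% in M0, M1 and M2 and 3.35%, 2.80% and 3.59% in their irradiated counterparts. By count it was the most abundant of all genes in M0, M2, RM0 and RM2, and stood behind only Fth1, the ferritin heavy chain, in M1 and RM1. The raw counts were 619470, 469148 and 620255 in M0, M1 and M2 and 625060, 527578 and 652243 in RM0, RM1 and RM2. After TMM scaling the levels were 31200, 31700, 30600, 31900, 31600 and 32900 CPM in the same order, and the highest was 1.08 times the lowest. Spp1 therefore set most of the reads that fell on the 10 genes, which together took 2.65% to 3.74% of each library.

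How Spp1 compared between M1 and M0 depended on the scaling. With TMM the log2 fold change was 0.02 [0.02 to 0.03] and with DESeq2 size factors it was 0.05, whereas by library totals it was -0.42. By library totals the median of all 11778 genes tested in this pair was also shifted, to -0.46, against -0.03 with TMM, so Spp1 sat close to the middle of all genes under each scaling. The same scaling moved that median to -0.25 in RM1 against RM0, so higher and lower in M1 macrophages are stated below relative to the middle of all genes, and genes with small differences can change sign by library totals. The irradiated libraries differed from their controls by log2 fold changes of 0.03 (M0), 0.00 (M1) and 0.10 (M2). Its counting intervals were narrow because of its depth, and they carry no information on the spread between cultures.

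**Figure D2:**
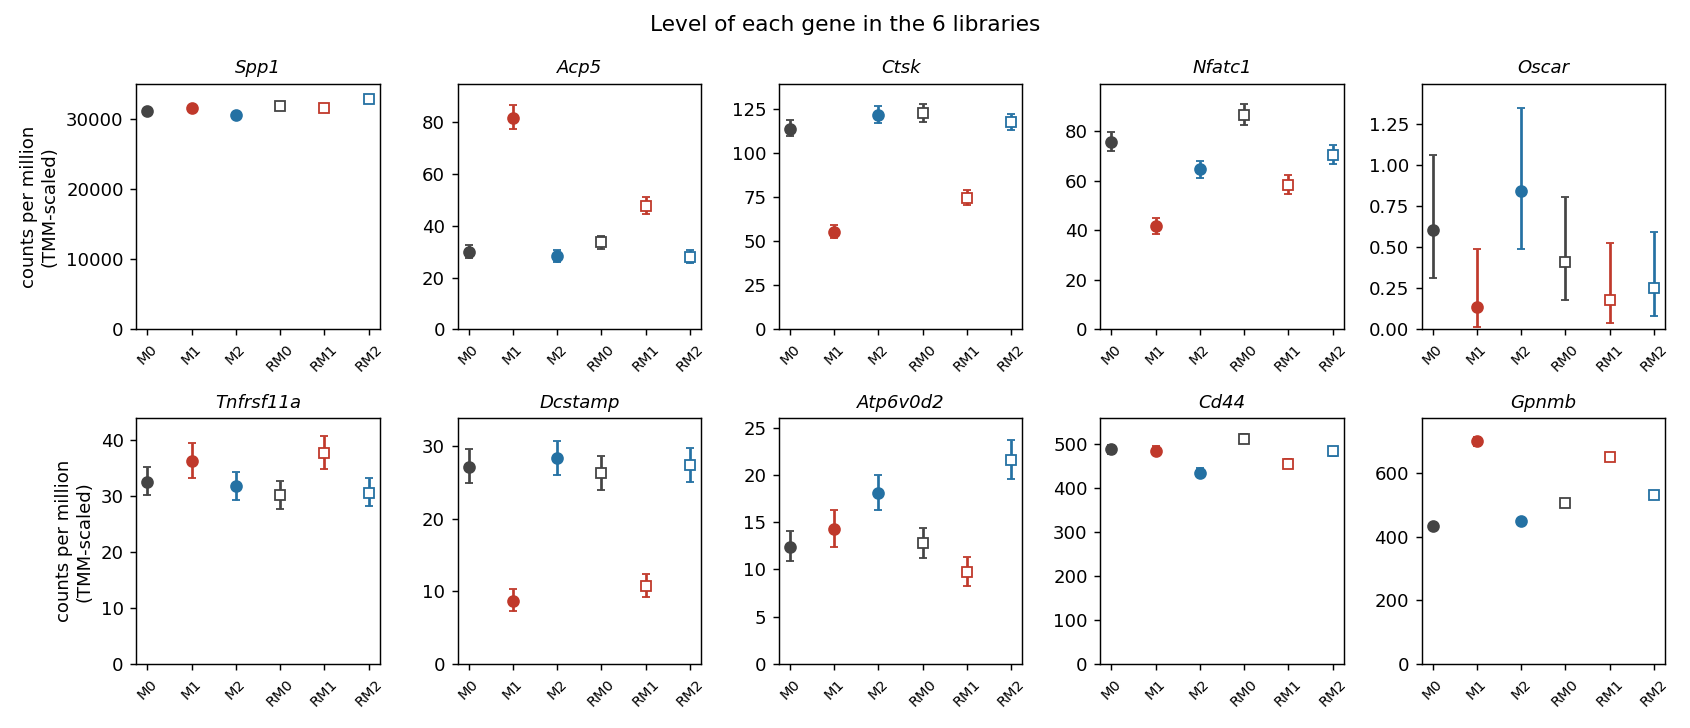
TMM-scaled level of each of the 10 genes in the 6 libraries, in CPM on linear axes that start at 0. Filled circles are non-irradiated and open squares irradiated libraries (grey M0 and RM0, red M1 and RM1, blue M2 and RM2), and bars are 95% counting intervals. Spp1 lies between 30600 and 32900 CPM, Acp5 is highest in M1 at 81.8, and Dcstamp is lowest in M1 and RM1 at 8.72 and 10.7.

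Cd44 (NM_001177786, chr2:102811142-102901665, minus strand) encodes a surface receptor for hyaluronan that also binds osteopontin and takes part in the fusion of osteoclast precursors. Its counts were 9701, 7187 and 8849 in M0, M1 and M2 and 10051, 7610 and 9594 in RM0, RM1 and RM2, which is 489, 486, 436, 513, 456 and 484 CPM after TMM scaling. The highest level, in RM0, was 1.18 times the lowest, in M2. M1 and M0 differed by -0.01 [-0.05 to 0.04] on the log2 scale, and by -0.45 by library totals, close to the shift of all genes. Osteopontin receptors and the enzymes that cut or cross-link osteopontin gave a list of 13 genes, of which 9 entered the test of M1 against M0 over both irradiation arms. In that test, which 23.3% of all genes passed as higher and 24.3% as lower, 4 rose and 1 fell, with a median log2 fold change of 0.25 against -0.02 over all genes. Those that rose were Mmp12, at low counts (5 in RM0 to 38 in RM1), Itga5, Itgav and Tgm2, and the one that fell was Plau. Itgav, the αv integrin chain that binds osteopontin, had 2822, 3374 and 4083 counts in M0, M1 and M2 and 3228, 6346 and 6964 in RM0, RM1 and RM2, and its log2 fold change over both arms was 0.94 in M1 (edgeR adjusted p = 7.15e-04). Itgav was also 0.74 higher on the log2 scale in RM1 than in M1 and 0.80 higher in RM2 than in M2, below the 2-fold threshold.

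Tnfrsf11a (NM_009399, chr1:105780723-105847981, plus strand) encodes RANK, the receptor through which RANKL acts. Its counts were 645, 537 and 642 in M0, M1 and M2 and 589, 627 and 607 in RM0, RM1 and RM2. TMM-scaled levels ran from 30.1 CPM in RM0 to 37.6 CPM in RM1, with the M1 and RM1 libraries highest. RM1 exceeded RM0 by a log2 fold change of 0.32 [0.16 to 0.49], and M1 exceeded M0 by 0.16 [-0.01 to 0.33]. The difference between M1 and M0 became -0.28 by library totals. Over both arms the edgeR quasi-likelihood fit gave 0.24 with a standard error (SE) of 0.12 (adjusted p = 0.130), which did not pass. Its ligand RANKL (Tnfsf11) and the soluble decoy osteoprotegerin (Tnfrsf11b) had 0 counts in all 6 libraries. Of the 6 other genes for RANKL, M-CSF, TNF and their receptors that were measured, 2 rose and 1 fell in M1 over both arms. Their median was 0.30 against -0.02 over all genes, of which 23.3% passed as higher and 24.3% as lower. Tnfrsf1b, a TNF receptor, rose by 2.43 (edgeR adjusted p = 2.77e-06) and Csf1, which encodes M-CSF, by 1.51 (adjusted p = 0.00105), while Csf1r, the M-CSF receptor needed by osteoclast precursors, fell by 1.07 (adjusted p = 1.10e-04).

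Oscar (NM_175632, chr7:3609815-3616157, minus strand) encodes a co-stimulatory receptor that signals through the FcRγ adaptor and is induced as osteoclasts form. Its counts were 12, 2 and 17 in M0, M1 and M2 and 8, 3 and 5 in RM0, RM1 and RM2. The 4 lowest counts were those of M1, RM1, RM2 and RM0, and none of the 6 exceeded 17. M1 was called lower than M0, at a log2 fold change of -1.55 [-5.36 to 0.01], and the counting interval reached past 0. RM2 was called lower than M2, at -1.39 [-3.53 to -0.24], and neither M2 nor RM2 reached the 20 counts that a stricter minimum asks for. RM1 and M1 had 3 counts or fewer each, so no fold change is given, and Oscar had too few counts for the fit over all libraries. Of the 16 measured genes of RANK and ITAM signaling, 6 rose and 2 fell in M1 over both arms, with a median of 0.19. The shares of all genes in that fit were 23.3% higher and 24.3% lower. Trem2, a receptor that signals through the other ITAM adaptor, DAP12, had 693, 82 and 698 counts in M0, M1 and M2 and 698, 142 and 657 in RM0, RM1 and RM2, and fell by 2.33 in M1 (edgeR adjusted p = 5.02e-06). Fcer1g, the FcRγ adaptor itself, rose by 0.86 (adjusted p = 7.13e-04) and the adaptor Gab2 by 0.94 (adjusted p = 1.84e-04).

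Nfatc1 (NM_001164110, chr18:80606205-80713071, minus strand) encodes the master transcription factor of osteoclast formation. Its counts were 1497, 615 and 1308 in M0, M1 and M2 and 1697, 972 and 1398 in RM0, RM1 and RM2. The TMM-scaled levels were 75.5, 41.6, 64.5, 86.6, 58.3 and 70.5 CPM, so M1 was lowest, RM1 next, and RM0 highest. M1 was below M0 by a log2 fold change of -0.86 [-1.0 to -0.72], short of the 2-fold threshold, and RM1 was below RM0 by -0.57 [-0.69 to -0.46]. By library totals the M1 difference was -1.30 and passed the threshold. In the fit over both arms Nfatc1 fell by 0.71 on the log2 scale in M1 (SE 0.13, edgeR adjusted p = 0.00143). M2 and RM2 were lower than M0 and RM0 by -0.23 and -0.30, and the fit gave -0.26 for M2 (adjusted p = 0.508).

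The transcription factors that act beside NFATc1 were counted over a list of 19 genes, all of them measured. In M1 over both arms 2 rose and 6 fell, with a median of -0.14 against -0.02 over all genes. Of all genes fitted, 23.3% passed as higher and 24.3% as lower. The AP-1 members and partners Fosl1, Jdp2 and Fos and the NFAT family member Nfatc2 were among those that fell. Fosl1 went from 1240 counts in M0 to 234 in M1 and from 1293 in RM0 to 472 in RM1, a fall by 1.57 over both arms (edgeR adjusted p = 7.51e-05). Jdp2, which is needed for osteoclast differentiation, fell by 1.28 (adjusted p = 1.16e-04), Nfatc2 by 0.93 (adjusted p = 5.41e-04) and Fos by 0.91 (adjusted p = 1.83e-04). Nfkb2 (0.85, adjusted p = 0.00229) and Mitf (0.84, adjusted p = 4.65e-04) rose. The MITF family members Tfe3 (-0.14), Tfeb (0.06) and Tfec (-0.22) did not pass. Of 12 repressors of osteoclast formation, 6 rose and 0 fell, against 23.3% and 24.3% of all genes, with a median of 0.58. These were Irf1, Irf7, Irf8, Id1, Id2 and Nfkbia, and Irf8, which holds NFATc1 in check, had 1493, 6225 and 1317 counts in M0, M1 and M2 and 1552, 2052 and 1086 in RM0, RM1 and RM2. Irf1, Irf7 and Irf8 are also interferon response genes, and IFN-γ was part of the M1 treatment.

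Dcstamp (NM_001289513, chr15:39745930-39760938, plus strand) encodes the membrane protein that osteoclast precursors need to fuse. Its counts were 537, 129 and 574 in M0, M1 and M2 and 513, 178 and 541 in RM0, RM1 and RM2. After TMM scaling M1 and RM1 held 8.72 and 10.7 CPM, and the other 4 libraries lay between 26.2 and 28.3 CPM. Dcstamp was called lower in M1 than in M0, at -1.62 [-1.92 to -1.35], and lower in RM1 than in RM0, at -1.29 [-1.55 to -1.05]. It fell by 1.45 in the fit over both arms (SE 0.15, edgeR adjusted p = 4.08e-05), the farthest of the 9 genes fitted. M2 and RM2 stayed within 0.06 of M0 and RM0 on the log2 scale. Of 10 other genes of cell fusion in the fit, 3 rose and 1 fell in M1, against 23.3% and 24.3% of all genes. Their median was -0.01. Cd47, whose product marks cells as self and takes part in macrophage fusion, rose by 1.68 (adjusted p = 1.25e-05), Adam9 by 0.74 (adjusted p = 7.23e-04) and Cd9 by 0.65 (adjusted p = 0.00250), while Tm4sf19 fell by 0.68 (adjusted p = 0.00505).

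Acp5 (NM_001102405, chr9:22126727-22135746, minus strand) encodes tartrate-resistant acid phosphatase (TRAP), the enzyme used to stain osteoclasts. Its counts were 595, 1210 and 573 in M0, M1 and M2 and 658, 797 and 557 in RM0, RM1 and RM2. The TMM-scaled levels were 30.0, 81.8, 28.2, 33.6, 47.8 and 28.1 CPM, with M1 highest, RM1 next and the other 4 libraries at 33.6 CPM or below. Acp5 was the only one of the 10 genes called higher in M1 than in M0, at 1.44 [1.31 to 1.59]. RM1 exceeded RM0 by 0.51 [0.36 to 0.66]. Over both arms Acp5 rose by 1.00 on the log2 scale (SE 0.19, edgeR adjusted p = 0.00188).

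Ctsk (NM_007802, chr3:95499210-95509387, plus strand) encodes cathepsin K, the protease with which osteoclasts digest bone collagen. Its counts were 2270, 819 and 2472 in M0, M1 and M2 and 2404, 1249 and 2336 in RM0, RM1 and RM2. The levels after TMM scaling were 114, 55.4, 122, 123, 74.9 and 118 CPM, so M1 was lowest, RM1 next and the other 4 libraries lay between 114 and 123 CPM. Ctsk was called lower in M1 than in M0, at -1.05 [-1.16 to -0.93], while RM1 against RM0 gave -0.71 [-0.81 to -0.61], short of the threshold. It fell by 0.87 over both arms (SE 0.14, edgeR adjusted p = 5.61e-04). TRAP and cathepsin K, which osteoclasts make together, thus moved in opposite directions in M1 macrophages, as the plot of M1 against M0 shows.

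Atp6v0d2 (NM_175406, chr4:19876838-19922566, minus strand) encodes a subunit of the proton pump that acidifies the resorption space, and it also takes part in precursor fusion. Its counts were 246, 212 and 368 in M0, M1 and M2 and 251, 162 and 428 in RM0, RM1 and RM2. The TMM-scaled levels were 12.4, 14.3, 18.1, 12.8, 9.72 and 21.6 CPM, with the 2 libraries of M2 macrophages highest. M2 exceeded M0 by a log2 fold change of 0.54 [0.31 to 0.79] and RM2 exceeded RM0 by 0.75 [0.52 to 0.98], each below the 2-fold threshold. The fit over both arms gave 0.66 for M2 (SE 0.19, edgeR unadjusted p = 0.00557, adjusted p = 0.370), which did not pass. Without the M1 and RM1 libraries the fitted value was again 0.66 and the edgeR adjusted p was 4.24e-05, in a fit in which 1341 genes passed in place of 22. The estimated spread around that fit was smaller, with a common dispersion of 0.004365 against 0.01152 in the main fit. It also had fewer libraries and fewer residual degrees of freedom, so its p-value is not a stronger test of the same value. In M1 the sign under TMM differed between arms, with 0.21 [-0.06 to 0.48] for M1 against M0 and -0.39 [-0.69 to -0.11] for RM1 against RM0. The first interval includes 0, and by library totals both values were negative, at -0.23 and -0.64.

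The other genes of resorption and acid secretion formed a list of 21, of which 20 were measured. In M1 over both arms 8 rose and 3 fell, with a median of 0.21 against -0.02 over all genes. Over all genes 23.3% passed as higher and 24.3% as lower. Mmp9, a collagenase and gelatinase of osteoclasts, had 2807, 427 and 2166 counts in M0, M1 and M2 and 2885, 895 and 2095 in RM0, RM1 and RM2 and fell by 1.84 (edgeR adjusted p = 4.65e-05). Car2, the carbonic anhydrase that supplies protons, fell by 1.42 (adjusted p = 2.53e-05), and Slc4a2, the chloride and bicarbonate exchanger of the osteoclast, by 0.95 (adjusted p = 1.19e-04). The 8 that rose included Cstb, an inhibitor of cathepsins, at 0.73 (adjusted p = 0.00147). Some genes of the proton pump itself also rose, Atp6v1b2 by 0.53, Tcirg1 by 0.48, Atp6v0c by 0.46 and Atp6ap1 by 0.34. For Atp6v0c, RM1 against RM0 gave only 0.07. The rest of the 8 were Cst3 (0.51), Snx10 (0.41) and Ostm1 (0.33). The other pump genes of the list did not pass. They were Atp6v1a (0.24), Atp6v1c1 (0.24), Atp6v1d (0.19), Atp6v1e1 (0.14), Atp6v0d1 (-0.13), Atp6v0a1 (-0.25) and Atp6v1h (-0.33). Mmp9 and Car2 also stand among the markers of mature osteoclasts. The summed level of these markers was 259 CPM in M1, 269 CPM in RM1 and between 445 and 522 CPM in the other 4 libraries. Of the 5 markers fitted only Mmp9 and Car2 fell, and the median of the 5 was -0.01. Ckb (0.18), Ocstamp (0.00) and Itgb3 (-0.01) did not pass, and Ckb stood at 102 CPM in M0 and 138 CPM in M1. Of the 6 macrophage markers fitted, 2 rose in M1 over both arms, Fcgr1 by 2.63 (adjusted p = 6.98e-07) and Adgre1 (listed as Emr1) by 1.82 (adjusted p = 8.36e-06), and 2 fell, Csf1r and Lyz2, with a median of 0.16. Their summed level was lowest in M1 and RM1, at 17200 and 20000 CPM, but most of that sum was Lyz2 alone, at 13500 CPM in M1 and 23700 CPM in M0. What part these marker differences had in the fall of Ctsk, Nfatc1 and Dcstamp was not tested. In RNA from whole cultures, fewer cells that express a gene and less of its RNA per cell cannot be told apart.

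Gpnmb (NM_053110, chr6:49036518-49058182, plus strand) encodes a transmembrane glycoprotein, also known as osteoactivin, of lysosomes and the cell surface in macrophages and osteoclasts. The span listed for it covers 62.9% of the gene in the GENCODE M21 annotation. Its counts were 8559, 10329 and 9133 in M0, M1 and M2 and 9878, 10815 and 10514 in RM0, RM1 and RM2. After TMM scaling the levels were 432, 699, 450, 504, 649 and 530 CPM, with M1 and RM1 above the other 4 libraries. M1 exceeded M0 by a log2 fold change of 0.69 [0.65 to 0.74] and RM1 exceeded RM0 by 0.36 [0.32 to 0.40]. Gpnmb rose by 0.53 over both arms (SE 0.14, edgeR adjusted p = 0.0100), but by library totals the value was 0.18 and did not pass (adjusted p = 0.162). Of 15 lysosomal genes, chosen as targets of MITF and its relatives or as lysosomal proteins, 8 rose and 2 fell in M1 over both arms. Their median was 0.45, and of all genes 23.3% passed as higher and 24.3% as lower. Ctsl, a lysosomal cysteine protease, rose by 1.53 (adjusted p = 2.18e-04), Lamp2, a lysosomal membrane protein, by 1.12 (adjusted p = 1.07e-04), and Lgmn, the protease legumain, by 0.97 (adjusted p = 4.50e-04). Those that fell were Rragd, by 1.57 (adjusted p = 0.0324), and Flcn, by 0.51 (adjusted p = 0.0120), and their products act together in nutrient sensing at the lysosome.

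Taking the comparison of M1 with M0 as a whole, 1 of the 10 genes was called higher (Acp5) and 3 lower (Ctsk, Oscar and Dcstamp), and over all 11778 genes tested 9.37% were called higher and 13.3% lower. In RM1 against RM0, 0 of 9 were called higher and 1 lower (Dcstamp), against 6.16% and 7.87% of all genes. In the edgeR fit over both arms 2 of 9 passed as higher (Acp5 and Gpnmb) and 3 as lower (Ctsk, Nfatc1 and Dcstamp), against 23.3% and 24.3% of the 11574 genes fitted. The share of the 9 genes that passed lay near that of all genes, and their median log2 fold change of -0.08 lay near the -0.02 of all genes. In this fit the irradiated and the non-irradiated library of a state stand in for replicates, so its p-values rest on the assumption that irradiation acts alike in each state.

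**Figure D3:**
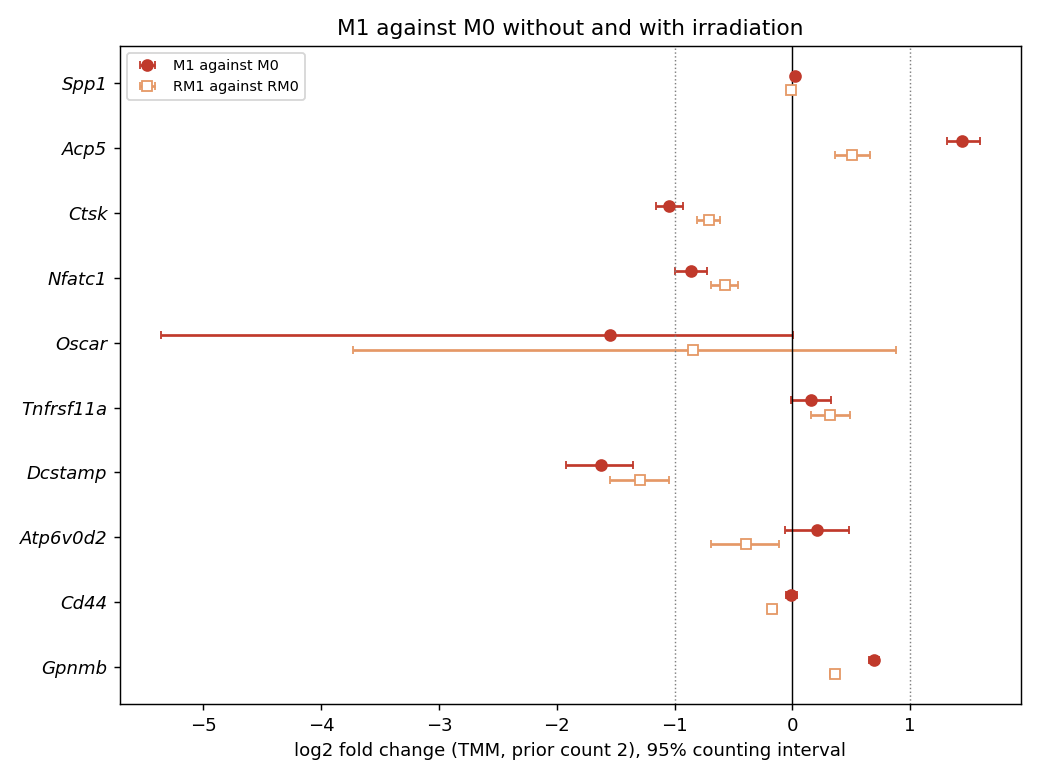
Log2 fold change of the 10 genes in M1 against M0 (filled circles) and in RM1 against RM0 (open squares), with 95% counting intervals, TMM scaling and a prior count of 2. Dotted lines mark 2-fold. Acp5 lies at 1.44 and 0.51, Ctsk at -1.05 and -0.71, and Dcstamp at -1.62 and -1.29, each nearer to 0 in the irradiated pair.

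All 5 genes that passed this fit had a smaller M1 difference among irradiated than among non-irradiated libraries. Of all 5509 genes that passed it, 3924 (71.2%) did the same, so the direction was that of most genes. For Acp5 the difference was the largest of the 5, from 1.44 without to 0.51 with irradiation. Seen from the irradiation side, Acp5 was lower in RM1 than in M1 by a log2 fold change of -0.77 [-0.91 to -0.65], and 0.16 [0.00 to 0.33] higher in RM0 than in M0. These irradiation effects differed by -0.94 [-1.15 to -0.73], an interval for counting error alone, and with 1 library per condition the difference could not be tested against the spread between cultures. Ctsk and Nfatc1 went the other way and were higher in RM1 than in M1, by 0.43 [0.31 to 0.56] and 0.49 [0.34 to 0.64]. Dcstamp was higher in RM1 by 0.29 [-0.04 to 0.63]. RM1 against M1 shares the M1 library with M1 against M0, so these values are not a separate line of evidence.

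**Figure D4:**
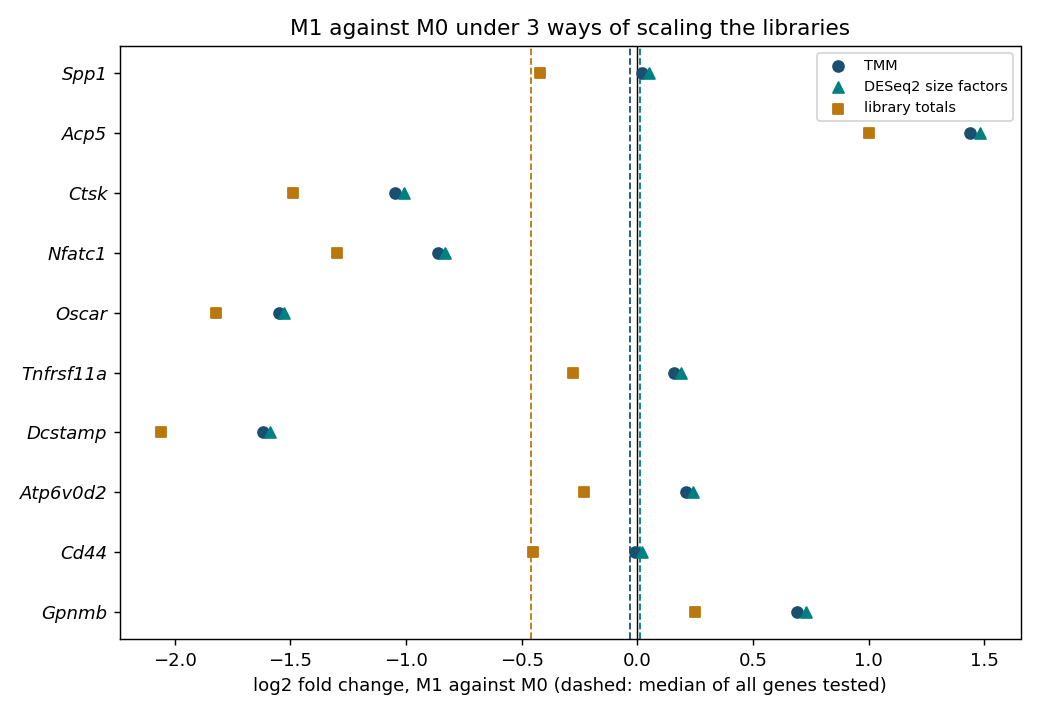
Log2 fold change of the 10 genes in M1 against M0 under TMM, DESeq2 size factors and library totals, with dashed lines at the median of all genes tested under each scaling. By library totals every gene moves toward lower values along with the median, which lies at -0.46, and Spp1 moves from 0.02 to -0.42.

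Few of the 10 genes were called in the comparisons of irradiated with non-irradiated macrophages. In RM0 against M0, 0 of 10 were called in either direction, against 0.719% of all genes called higher and 0.821% lower. In RM1 against M1, 0 of 9 were called, against 3.08% higher and 2.25% lower, and in RM2 against M2 only Oscar was called, as lower, against 1.03% higher and 0.932% lower. In the edgeR fit of irradiation over the 3 states 0 of 9 passed, with 1 at an unadjusted p under 0.05, and DESeq2 also passed 0, while 0.346% of all genes passed as higher and 0.130% as lower. That gene was Nfatc1, at a log2 fold change of 0.27 (SE 0.11, unadjusted p = 0.0299, adjusted p = 0.290). It was higher in all 3 irradiated libraries, by 0.20 [0.10 to 0.30] in RM0, 0.49 in RM1 and 0.13 [0.02 to 0.24] in RM2. Every list of pathway genes had 0 genes that passed in this fit. Single pairs called Irf1 and Irf8 lower in RM1 than in M1, by -2.51 and -1.77, and Rragd and the integrin chain Itgb3 higher, both at low counts. Rragd had 2 counts in M1 and 12 in RM1, and Itgb3 had 4 and 16.

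**Figure D5:**
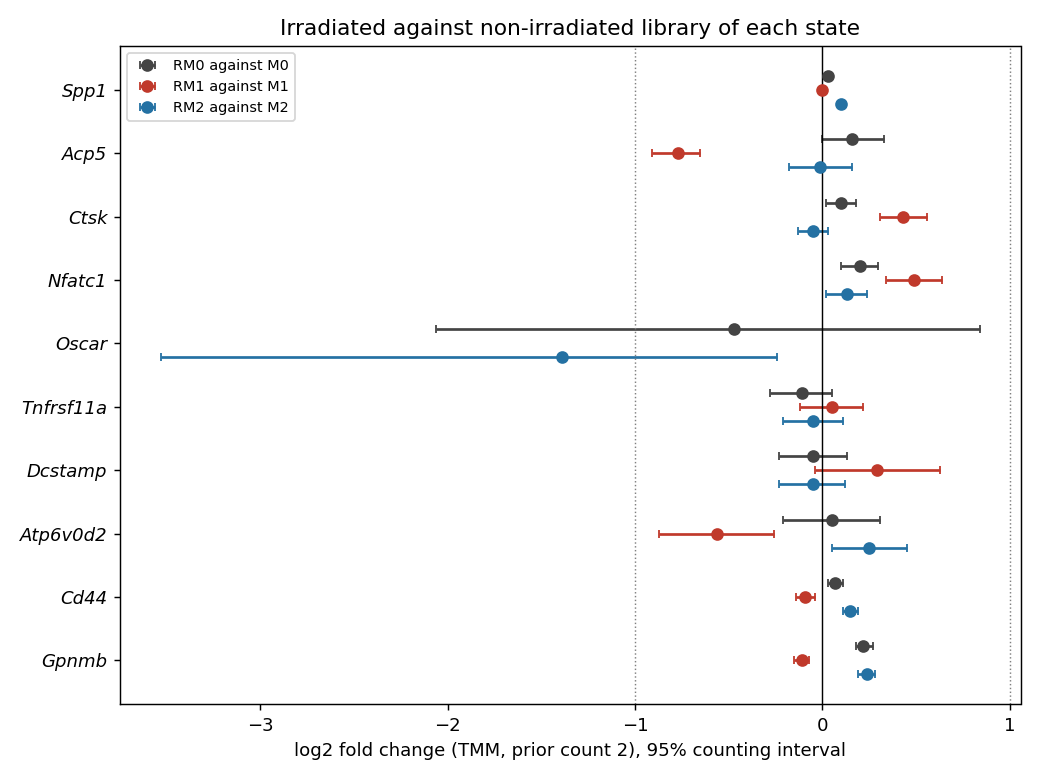
Log2 fold change of the 10 genes in RM0 against M0, RM1 against M1 and RM2 against M2, with 95% counting intervals. Dotted lines mark 2-fold. Only Oscar in RM2 against M2, at -1.39, lies past 2-fold, Acp5 in RM1 against M1 lies at -0.77, and Oscar has no value in RM1 against M1.

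Under IL-4 none of the 10 genes passed a threshold at the main settings, and Atp6v0d2 passed in the fit without M1 and RM1 given above. In M2 against M0, 0 of 10 were called, against 0.995% of all genes called higher and 0.442% lower, and in RM2 against RM0, 0 of 9, against 1.66% and 0.953%. In the edgeR fit of M2 over both arms 0 of 9 passed, with Atp6v0d2 the 1 gene at an unadjusted p under 0.05, and DESeq2 passed 0, while 0.156% of all genes passed as higher and 0.0346% as lower. Outside the 10 genes, the list of transcription factors held 1 gene that rose in M2. This was Nfkb1, which encodes an NF-κB subunit and rose by 0.76 (adjusted p = 0.0372).

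For each of the 5 genes with a range of at least 1 in log2 CPM and a mean of at least 50 counts, the genes with the most similar levels over the 6 libraries were sought among 3098 others. Dcstamp was followed most closely by Swap70, Ncoa5 and Heatr3 (Pearson r of 0.9998, 0.9997 and 0.9996), and Swap70 stood at 149, 51.8 and 155 CPM in M0, M1 and M2 and at 140, 63.2 and 149 CPM in RM0, RM1 and RM2. Ctsk was most like Gtf2ird2, Chac1 and Cnr2 (0.9991, 0.9980 and 0.9976), and Acp5 most like Tmem106a, Higd2a and A930015D03Rik (0.9991, 0.9983 and 0.9979). Nfatc1 was most like Nr1h3, Fbxo31 and Aar2 (0.9923, 0.9919 and 0.9902). Atp6v0d2, with its high level in M2 and RM2, was most like Plxnd1, Cldn11 and Dok7 (0.9594, 0.9560 and 0.9281). Among themselves, Ctsk and Dcstamp had an r of 0.9811 and Ctsk and Acp5 one of -0.9736. The points of each correlation are the same 6 libraries, in which M1 and RM1 stand apart from the other 4, so many genes reach such values and they are given as a description.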

How the data were processed

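RNA-seq counts of 6 RAW264.7 libraries, 1 per condition, were analysed. The authors deposited raw read counts per gene for 24062 genes, without normalization, and the submitters' processing notes name Trimmomatic 0.36, HISAT2 2.2.1, HTSeq 0.11.3 and mm10, without their settings. Dates stood in place of 27 gene symbols, none of them one of the 10 genes. Whether counting used strand is not given in the sources used here.

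TMM factors came from edgeR 4.0.16 (R 4.3.3), and a prior count of 2 entered each log2 fold change. A call needed a 2-fold difference and 10 counts or more in either library of the pair, and it compares libraries and carries no p-value. Where both had 3 counts or fewer no fold change was given. Intervals are exact Clopper-Pearson intervals at 95%; for differences of fold changes with high counts they are Woolf intervals. Effects over all libraries came from edgeR's quasi-likelihood test with polarization and irradiation as terms (2 residual degrees of freedom), on the 11574 genes that reached 10 counts in 3 or more libraries, and p-values were adjusted over these genes by Benjamini-Hochberg at 0.05. No library of a condition is repeated. The p-values therefore set each effect against the departure of these libraries from a polarization effect plus an irradiation effect. They do not measure the spread between cultures. The scripts were tested on simulated data.

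The members and the gene lists were chosen with earlier results of these data known. The rule for named list genes takes up to 4 called genes per list with the largest fold changes. Further list genes were picked out after their values were seen. They were named because few rose or fell, because a count was 0 or to show the rest of a list. A result on 1 list gene is not reported here. Alternatives were DESeq2 1.42.0 size factors and test, scaling by library totals, other prior counts, thresholds and count minimums, models without a term, and each state left out. Promoter windows came from RefSeq for GRCm38.p6. None was used for Nfatc1, Dcstamp and Atp6v0d2, so the motif counts say nothing about these genes. Python 3.11.15 was used for the rest.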

Additional observations from a re-analysis of the deposited data

Results flagged for a closer look

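For 3 of the 10 genes the irradiated library lay above its control in 1 state and below it in another, with counting intervals that exclude 0, and with 1 library per condition none of these differences was tested against the spread between cultures. Atp6v0d2 had log2 fold changes of -0.56 in RM1 against M1 and 0.25 in RM2 against M2. Cd44 had 0.07 in RM0 against M0, -0.09 in RM1 against M1 and 0.15 in RM2 against M2. Gpnmb had 0.22 in RM0 against M0, -0.11 in RM1 against M1 and 0.24 in RM2 against M2. By library totals the values of Cd44 and Gpnmb in RM1 against M1 became 0.05 and 0.04, so the opposite sign holds for them only under TMM and DESeq2 scaling, while Atp6v0d2 remained at -0.41.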

How the results depend on the processing

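Of 65 counts of called or passing genes recomputed under the alternatives, 60 were equal to their value or within 1.5 times of it and 5 were not. Many of the 60 were counts of 0 that stayed 0. A stricter threshold or count minimum cannot raise a 0, so under those settings their outcome was fixed in advance. With a 4-fold threshold the count of the 10 genes fell to 0 in RM2 against M2, in M1 against M0 and in RM1 against RM0, and with a minimum of 20 counts it was 0 in RM2 against M2. In the fit of M2 over both arms 1 gene, Atp6v0d2, passed without M1 and RM1. By library totals the median of all genes was -0.46 in M1 against M0, -0.25 in RM1 against RM0 and 0.13 in RM1 against M1, compared with -0.03, -0.01 and -0.01 by TMM. Under it Spp1 reversed in the fit of M1 over both arms, from 0.01 to -0.34 (edgeR adjusted p = 0.0282), Cd44 passed at -0.43 (adjusted p = 0.00778) and Gpnmb did not pass. In pairs, 168 of the recomputed fold changes stayed within their counting interval and 39 did not. Acp5, Ctsk, Nfatc1 and Dcstamp passed in the M1 fit under every alternative run. Oscar, with 17 counts at most, was too shallow for more than the pairs given.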
